A study of Sus scrofa with 6 samples.

Results

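The 39 genes described here encode the machinery that burns fatty acids: acyl-CoA synthetases, the carnitine shuttle, the enzymes of mitochondrial and peroxisomal beta-oxidation, and 2 transcriptional regulators. They were chosen by name, as the rows of the deposited count tables that carry these symbols. All 39 were found among the 17201 listed genes, and all 39 were detected in each library.

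RNA came from the prefrontal cortex of 6 pigs (Sus scrofa) aged 3 months. Animals VPA 391, VPA 392 and VPA 393 were treated during early gestation with valproic acid (VPA, an anticonvulsant) at a dose of 75 mg/kg. Control 401, control 402 and control 408 are labelled as given no treatment. The sources used here do not give breed, litter, route or number of doses, and name no genetic change for either group. The question addressed is how expression in this region differs between exposed and control animals. As the cortex was sequenced as a whole, fewer cells of a type and less RNA per cell cannot be told apart.

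Fatty acids are first joined to coenzyme A by acyl-CoA synthetases. Long chains then cross into mitochondria as carnitine esters, made by CPT1A or CPT1B on the outer membrane, carried by SLC25A20 and turned back into acyl-CoA by CPT2. Inside, repeated rounds of dehydrogenation, hydration, a further dehydrogenation and thiolysis shorten the chain, and the electrons of the acyl-CoA dehydrogenases pass through the electron transfer flavoprotein to the respiratory chain. Peroxisomes run a parallel route that starts with an oxidase. In brain this oxidation is attributed mostly to astrocytes, while neurons burn mainly glucose and lactate. Valproate is itself a branched fatty acid. It is partly broken down by beta-oxidation, forms a carnitine ester, and is known to lower carnitine and to disturb beta-oxidation in treated patients.

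Libraries held 16285517 to 17989032 counts, so 1 CPM (counts scaled to the total of the library) stood for 16.3 to 18.0 reads. Genes of cortical glutamatergic neurons were present in all libraries, with a summed level of 3660 to 4003 CPM in VPA and 3909.5 to 4016 in controls over 7 markers, 5 of them with a negative log2 fold change and 4 at an unadjusted p under 0.05. Astrocyte markers (10 listed) summed to 8487 to 9838 CPM in VPA and 7817 to 8512 in controls. Of these 9 had a positive fold change, with a median log2 fold change of 0.19 and 7 at an unadjusted p under 0.05. Oligodendrocyte markers (10 listed) summed to 16660 to 18774 CPM in VPA and 12816 to 17190 in controls, with 10 of 10 positive, a median of 0.34 and 7 at an unadjusted p under 0.05. Markers of striatal projection neurons (7) summed to 431 CPM in VPA 393 and to 104 to 133 CPM in the other 5 libraries. The 4 choroid plexus markers summed to 49.4 to 59.6 CPM in VPA and 41.7 to 54.5 in controls. They differed in direction, with 2 positive and 2 negative fold changes and 3 at an unadjusted p under 0.05. TTR (log2 fold change 2.55, adjusted p = 0.041), higher in each VPA library, was the only marker in these lists that edgeR called. CLIC6 (log2 fold change -1.94, on 0 to 59 counts) and FOLR1 (-0.06) lay the other way. The 5 markers of muscle and fat summed to 5.34 to 7.71 CPM, mostly from ACTA1, with PLIN1 at 6 to 9 counts, MYH1 at 1 to 6, CKM at 0 to 4 and ADIPOQ at 0 in 5 libraries. The part of these markers in the results below was not tested, except that each library was left out in turn. The Y-linked gene EIF1AY had 450 to 548 counts in VPA 391, VPA 393, control 402 and control 408, and at most 2 counts in VPA 392 and control 401.

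No member passed the test between VPA and control cortex, and most differences were small and narrowly bounded. Of 39 members 0 had an adjusted p under 0.05 by the quasi-likelihood test of edgeR, adjusted over all 14373 tested genes, against 0.362% of all tested genes. An unadjusted p under 0.05 was found for 5 members, or 12.8%, against 16.1% of all tested genes. DESeq2, which called 3.64% of all genes it could adjust, called 0 members, as did limma-voom and limma on FPKM, with 2, 4 and 4 members at an unadjusted p under 0.05. The 95% interval of the fold change lay within 1.5-fold in either direction for 36 of 39 members and within 1.25-fold for 27. Over all tested genes those shares were 75.4% and 46.6%. CPT1B, ACSL5 and ACAD11 were the 3 members whose intervals reached beyond 1.5-fold.

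The fold changes leaned to the positive side without any single gene being called. Of 39 members 28 had a log2 fold change above 0, or 71.8%, where 50.5% of all tested genes did. Their median log2 fold change was 0.05, and that of all tested genes was 0.0018. The median ran from 0.03 to 0.07 over the 17 alternatives that give a fold change, with 23 to 29 members above 0. Its lowest values, both 0.03, came without VPA 391 (23 members above 0) and without VPA 392 (26). After rounding, the median was also 0.03 without control 408. Most astrocyte and oligodendrocyte markers also had positive fold changes, as given above, and their part in this lean was not tested. Summed over the 39 genes, expression was 2357, 2354 and 2348 CPM in VPA 391, VPA 392 and VPA 393, and 2313, 2308 and 2225 CPM in control 401, control 402 and control 408. The groups did not overlap in this sum, and control 408 was the lowest library. The sum uses file totals, without the TMM scaling factors behind the fold changes (1.013 for VPA 393, 0.993 for control 402). Dividing by these factors would place VPA 393 below control 402, so the separation depends on the scaling. In the plot of fold changes by role, the intervals of all but 5 genes cross 0.

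**Figure D1:**
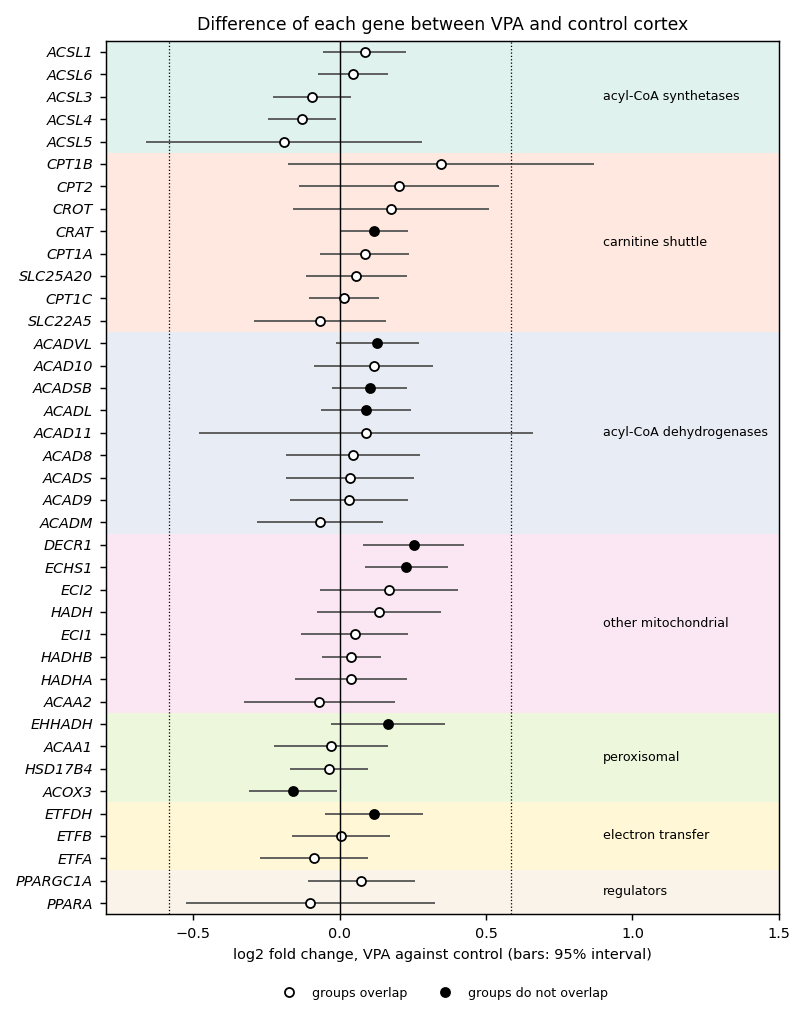
Log2 fold change of each of the 39 genes (VPA against control, horizontal axis, points) with its 95% interval (bars), grouped by role on the vertical axis. Filled points mark the 9 genes whose 3 VPA and 3 control libraries do not overlap in CPM from file totals. Dotted lines mark 1.5-fold, and only CPT1B, ACSL5 and ACAD11 have intervals that cross a dotted line.

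Levels differed far more between members than between groups. On the FPKM scale, which divides by gene length, means over the 6 libraries ran from 1.46 ± 0.349 for CPT1B to 94.9 ± 9.98 for ECHS1 (SD, n = 6). The median member stood at 15.6 FPKM and the median tested gene at 6.51 FPKM, and 30 of 39 members lay above the latter. The lengths the authors divided by, as implied by counts and FPKM, differed widely, from 16799 bases for PPARGC1A to 1054 for ECHS1, and this sets part of the order.

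**Figure D2:**
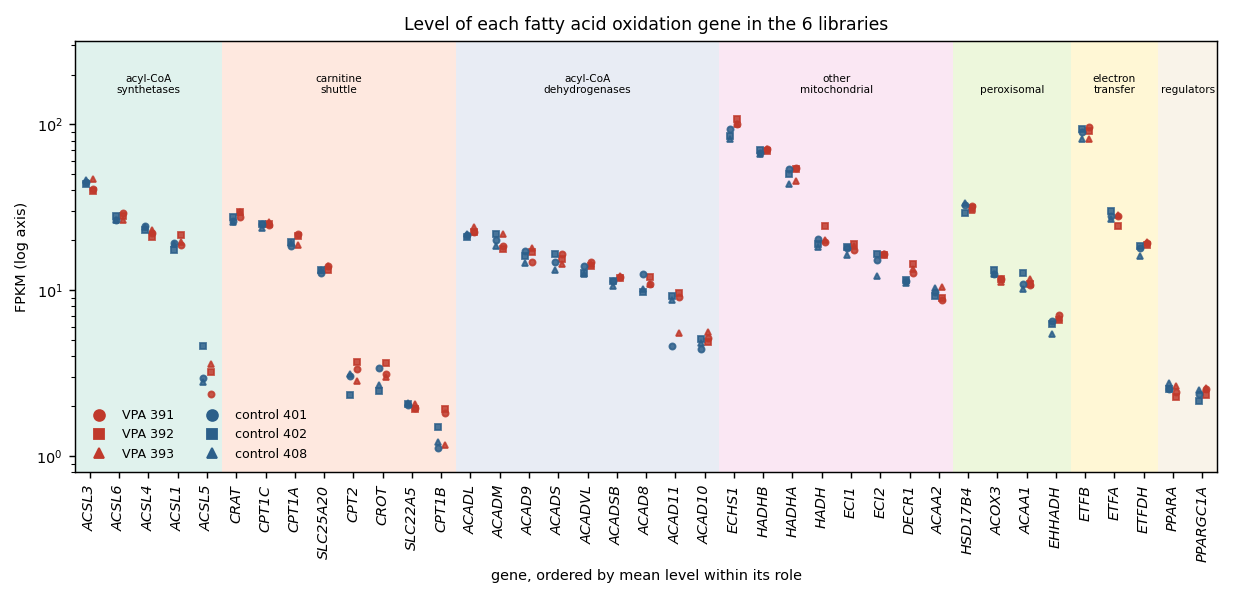
FPKM (log axis) of each gene in each of the 6 libraries, with genes ordered by mean level within their role; red marks VPA and blue control animals. ECHS1 and ETFB are the highest and CPT1B the lowest, and the 6 points of most genes lie close together, with ACAD11, ACSL5 and CPT1B more spread.

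The acyl-CoA synthetases, which activate long-chain fatty acids, made up 28.6% of the summed CPM of the 39 genes. Their order by FPKM was ACSL3 (43.7 ± 2.83), ACSL6 (27.5 ± 1.18), ACSL4 (22.9 ± 1.34), ACSL1 (19.2 ± 1.27) and ACSL5 (3.26 ± 0.794; SD, n = 6). Only the neighbours ACSL4 and ACSL1 overlapped in their ranges. Of the 5 genes 2 had positive and 3 negative fold changes, with a median of -0.10. Summed levels were 649, 646 and 678 CPM in VPA 391, VPA 392 and VPA 393, and 671, 662 and 674 CPM in controls 401, 402 and 408, which overlap.

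ACSL4, an enzyme that prefers arachidonic acid, had the lowest p of this role. It stood at 128, 121 and 135 CPM in VPA 391, VPA 392 and VPA 393 and at 142, 135 and 139 CPM in controls 401, 402 and 408. In CPM from file totals the groups met at VPA 393, which lay just above control 402. Dividing by the TMM factors would place VPA 393 below control 402. Its log2 fold change was -0.13 ± 0.053 (SE, edgeR adjusted p = 0.27). ACSL3, an enzyme of the endoplasmic reticulum and lipid droplets and the highest synthetase, had 223, 218 and 255 CPM in VPA and 246, 238 and 253 CPM in controls. VPA 393 was the highest of all 6 libraries and the other VPA libraries were the lowest. ACSL5, the lowest synthetase, had 6.88, 9.33 and 10.5 CPM in VPA and 8.62, 13.5 and 8.13 CPM in controls. Control 402 stood above the rest, and the log2 fold change of -0.19 became 0.07 without that animal.

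The carnitine shuttle moves long-chain acyl groups into mitochondria. Of its 8 genes 7 had positive fold changes, with a median of 0.10 and none called. Summed levels were 334, 340 and 329 CPM in VPA 391, VPA 392 and VPA 393 and 312, 319 and 310 CPM in controls 401, 402 and 408. The groups did not overlap in this sum, in which CRAT, CPT1A and CPT1C have most of the counts.

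CRAT, the carnitine acetyltransferase that handles short acyl groups, was the member of the shuttle with the highest FPKM (27.9 ± 1.63, SD, n = 6). It had 102, 109 and 110 CPM in VPA 391, VPA 392 and VPA 393 and 96.8, 101 and 95.6 CPM in controls 401, 402 and 408. Each VPA library lay above each control, with VPA 391 just above control 402. The log2 fold change was 0.12 ± 0.052 (SE, edgeR adjusted p = 0.30), and 0.10 to 0.14 with any 1 library left out.

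Of the 3 CPT1 genes, CPT1A and CPT1B encode enzymes of the regulated entry step, with CPT1B known as the form of muscle. CPT1C is known as the form of neurons, and its level is not read here as capacity for that step. By FPKM CPT1C stood at 25.0 ± 0.702, CPT1A at 19.9 ± 1.32 and CPT1B at 1.46 ± 0.349 (SD, n = 6), with no overlap between them. The FPKM of CPT1C was 1.13 to 1.38 times that of CPT1A in the 6 libraries, 1.23 ± 0.131 in VPA and 1.29 ± 0.0651 in controls. CPT1C was among the steadiest members, with 78.3 ± 1.85 CPM in VPA and 76.8 ± 2.60 in controls (SD, n = 3 each). Its 95% interval ran from 0.93-fold to 1.10-fold.

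CPT1A had 93.5, 90.4 and 80.2 CPM in VPA 391, VPA 392 and VPA 393 and 79.4, 84.3 and 83.0 CPM in controls. VPA 391 and VPA 392 were above all controls, while VPA 393 lay among them. CPT1B had 5.20, 5.46 and 3.34 CPM in VPA and 3.17, 4.27 and 3.47 CPM in controls. The same 2 VPA animals were the high ones, and VPA 393 again lay within the controls. CPT1B had the largest log2 fold change of the 39 members, at 0.35 ± 0.24 (SE, edgeR adjusted p = 0.51), on 57 to 89 reads per library. Leaving out 1 library moved it to between 0.22 (without VPA 392) and 0.55 (without VPA 393).

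The other shuttle genes had lower levels. CPT2, the inner-membrane transferase, had 9.97 ± 1.26 CPM in VPA and 8.58 ± 1.32 in controls. CROT, the peroxisomal octanoyltransferase, had 10.1 ± 1.08 and 8.82 ± 1.55 CPM. SLC25A20, the carnitine-acylcarnitine translocase, had 24.3 ± 0.762 and 23.2 ± 0.549 CPM. The carnitine uptake transporter gene SLC22A5 was the 1 shuttle gene with a negative fold change, at 11.8 ± 0.479 CPM in VPA and 12.3 ± 0.228 in controls (SD, n = 3 each). For these 4 genes the groups overlapped.

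The acyl-CoA dehydrogenases carry out the first step of each round, each on its own range of chain lengths or branches. Of 9 genes 8 had positive fold changes, with a median of 0.09 and none called. Summed levels were 352, 352 and 356 CPM in VPA 391, VPA 392 and VPA 393 and 337, 343 and 321 CPM in controls 401, 402 and 408. All VPA libraries lay above all controls in this sum, and close to each other. By FPKM the order was led by ACADL (22.2 ± 1.11) and ACADM (19.8 ± 1.85) and closed by ACAD11 (7.82 ± 2.17) and ACAD10 (4.98 ± 0.380; SD, n = 6). From ACADL down to ACADVL, each gene overlapped its neighbour in range, as did ACADSB with ACAD8 and ACAD11 with ACAD10.

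In 3 of these genes the groups did not overlap, with VPA higher in each. Among all tested genes 21.2% had groups that did not overlap, and 12.1% had such groups with VPA higher. ACADVL, the very-long-chain enzyme, had 70.9, 67.2 and 69.2 CPM in VPA 391, VPA 392 and VPA 393 and 67.2, 61.1 and 59.8 CPM in controls 401, 402 and 408. VPA 392 and control 401 nearly coincided. ACADSB, an enzyme of short branched chains that is known to act on valproyl-CoA, had 69.4, 68.6 and 71.1 CPM in VPA and 65.8, 65.8 and 61.5 CPM in controls. Its log2 fold change was 0.10 ± 0.058 (SE, edgeR adjusted p = 0.42), with a 95% interval of 0.982-fold to 1.17-fold. ACADL, the long-chain enzyme, had 38.0, 38.3 and 41.0 CPM in VPA and 36.6, 35.5 and 37.1 CPM in controls. The gap between the groups was smaller than the range within either group in ACADL, and smaller than the range within controls in ACADSB.

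ACADM, the medium-chain enzyme, was the dehydrogenase with a negative fold change (35.5 ± 4.18 CPM in VPA and 36.9 ± 3.13 in controls, SD, n = 3 each). ACADS, the short-chain enzyme, had 31.7 ± 2.22 and 30.7 ± 3.41 CPM. ACAD8, of valine breakdown, had 24.7 ± 1.28 and 23.8 ± 3.18 CPM. ACAD9, which also serves the assembly of respiratory complex I, had 38.6 ± 3.78 and 37.4 ± 3.17 CPM. ACAD10, the lowest of the 9 by FPKM, had 21.7, 20.8 and 23.6 CPM in VPA and 18.7, 21.4 and 20.3 CPM in controls. In these 5 genes the groups overlapped.

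ACAD11 was the most variable of the 39 genes, with a coefficient of variation of 27.7% over the 6 libraries, where the median member had 6.93%. It had 25.8 and 27.6 CPM in VPA 391 and VPA 392 but 15.7 in VPA 393, and 26.4 and 24.8 CPM in control 402 and control 408 but 13.1 in control 401. So 1 animal of each group was low, and the other 4 lay between 24.8 and 27.6 CPM. Its log2 fold change of 0.09 ± 0.26 (SE) changed sign without VPA 391, VPA 392 or control 401 and reached 0.31 without VPA 393.

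**Figure D3:**
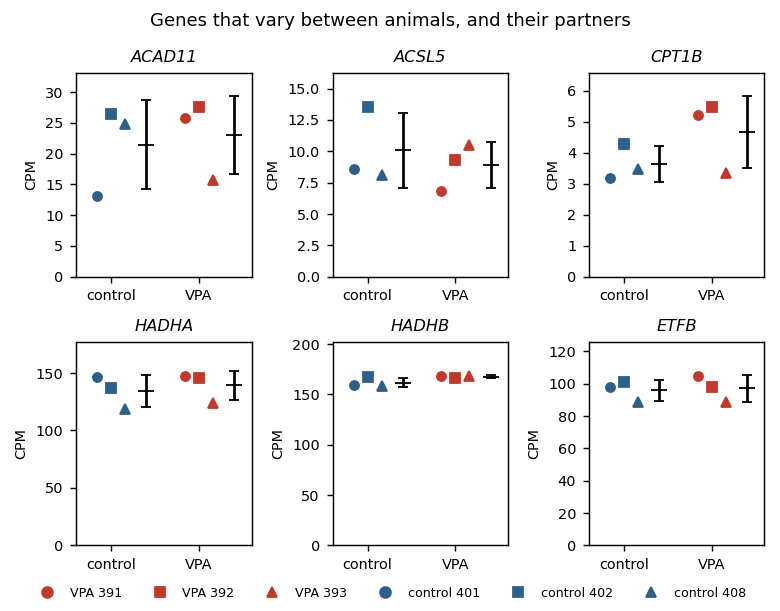
CPM of 6 genes in each library (vertical axes start at 0; red VPA, blue control; bars are the mean and SD of 3 animals). ACAD11 is low in VPA 393 and control 401, ACSL5 is high in control 402, CPT1B is high in VPA 391 and VPA 392, and HADHA and ETFB are lowest in VPA 393 and control 408 while HADHB is nearly level.

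The enzymes that complete the mitochondrial round, with the isomerases and the reductase needed for unsaturated chains, held the 2 members with the lowest p. Of 8 genes 7 had positive fold changes, with a median of 0.09. Summed levels were 551, 568 and 534 CPM in VPA 391, VPA 392 and VPA 393 and 532, 521 and 478 CPM in controls 401, 402 and 408.

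ECHS1, the short-chain enoyl-CoA hydratase that also serves valine breakdown, had the highest FPKM of all members. It had 106, 113 and 106 CPM in VPA 391, VPA 392 and VPA 393 and 99.4, 89.9 and 85.7 CPM in controls 401, 402 and 408. Each VPA library was above each control. The log2 fold change was 0.23 ± 0.063 (SE, edgeR adjusted p = 0.12), a 1.17-fold difference with a 95% interval of 1.06 to 1.29. Over its 17 alternatives it ran from 0.18 to 0.28, with adjusted p from 0.071 (DESeq2) to 0.34.

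DECR1, the reductase of unsaturated fatty acid oxidation, had 29.9, 33.9 and 31.4 CPM in VPA and 26.5, 26.9 and 25.8 CPM in controls 401, 402 and 408. The controls lay close together and below all VPA libraries. DECR1 had a log2 fold change of 0.25 ± 0.078 (SE, edgeR adjusted p = 0.15), a 1.19-fold difference with a 95% interval of 1.06 to 1.34.

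HADHA and HADHB encode the subunits of the trifunctional protein, which handles long chains at the inner membrane. HADHB was the steadiest of all members (coefficient of variation 2.76%), with 168 ± 1.53 CPM in VPA and 162 ± 4.79 in controls. HADHA had 148, 146 and 124 CPM in VPA 391, VPA 392 and VPA 393 and 147, 137 and 119 CPM in controls 401, 402 and 408. It was low in VPA 393 and control 408, and the groups covered nearly the same range. Both log2 fold changes were near 0, at 0.04 ± 0.086 for HADHA and 0.04 ± 0.046 for HADHB (SE).

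The other genes of this role had overlapping groups. HADH, the short-chain hydroxyacyl-CoA dehydrogenase, had 36.7 ± 4.58 CPM in VPA and 33.1 ± 1.80 in controls, with VPA 392 at 41.9. ECI2, an isomerase, stood at 30.6 ± 0.206 CPM in VPA and at 27.0 ± 4.15 in controls, where control 408 stood at 22.4. ECI1, its mitochondrial relative, had 25.4 ± 1.13 and 24.3 ± 1.42 CPM. ACAA2, the mitochondrial thiolase with the lowest FPKM of this role (9.61 ± 0.738, n = 6), had 10.4, 10.7 and 12.6 CPM in VPA and 11.7, 11.0 and 12.3 CPM in controls.

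The 4 peroxisomal genes differed in direction: 1 had a positive and 3 a negative fold change. By CPM from file totals, ACOX3, an oxidase of branched acyl chains, was the 1 member lower in every VPA library than in every control. It had 45.2, 44.9 and 43.1 CPM in VPA 391, VPA 392 and VPA 393 and 48.1, 51.2 and 48.1 CPM in controls 401, 402 and 408. The log2 fold change was -0.16 ± 0.068 (SE, edgeR adjusted p = 0.28), and -0.18 to -0.13 with any 1 library left out. EHHADH, the bifunctional enzyme of straight and dicarboxylic chains, lay the other way, with 30.6, 28.2 and 29.2 CPM in VPA and 27.8, 26.8 and 23.3 CPM in controls. Its log2 fold change was 0.16 ± 0.088 (SE, edgeR adjusted p = 0.39), and VPA 392 lay less than 1 CPM above control 401. HSD17B4, the bifunctional enzyme of branched and very long chains and the highest of the role by FPKM (31.7 ± 1.51, n = 6), had 110, 106 and 104 CPM in VPA and 112, 100 and 114 CPM in controls. ACAA1, the peroxisomal thiolase, stood at 46.7 ± 2.03 CPM in VPA and at 47.3 ± 5.47 in controls (SD, n = 3 each).

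The electron transfer genes take up the electrons of all acyl-CoA dehydrogenases. ETFDH, the oxidoreductase that passes them to ubiquinone, had 48.3, 46.9 and 49.4 CPM in VPA and 45.4, 46.6 and 40.3 CPM in controls 401, 402 and 408. The groups were separated by less than 1 CPM, between VPA 392 and control 402, and control 408 was the lowest. The log2 fold change was 0.12 ± 0.075 (SE, edgeR adjusted p = 0.49). ETFB, the flavoprotein subunit with the highest FPKM here (89.4 ± 6.18, n = 6), had 105, 98.2 and 88.5 CPM in VPA and 98.1, 101 and 88.9 CPM in controls. The lowest value in each group was close to the other, in VPA 393 and control 408. ETFA, the partner subunit, had 38.6 ± 3.09 CPM in VPA and 40.7 ± 2.41 in controls (SD, n = 3 each).

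PPARA encodes the fatty acid receptor that drives many of these genes in liver, and PPARGC1A the coactivator of mitochondrial biogenesis. PPARA was low, at 3.41, 3.19 and 3.73 CPM in VPA and 3.56, 3.56 and 3.87 CPM in controls. PPARGC1A had 42.7, 39.0 and 43.5 CPM in VPA and 39.7, 36.0 and 42.2 CPM in controls. Both had overlapping groups, with log2 fold changes of -0.10 ± 0.19 and 0.07 ± 0.082 (SE). The interval for PPARA, from 0.695-fold to 1.25-fold on 52 to 68 reads per library, leaves more room than that for PPARGC1A (0.928-fold to 1.19-fold).

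Of the 39 members 9 had groups that did not overlap, or 23.1%, against 21.2% of all tested genes. Split by direction, 8 were higher in VPA (20.5%, against 12.1% of all tested genes) and 1 was lower (2.56%, against 9.07%). Overlap was judged on CPM from file totals, for members and for all genes alike. With the TMM factors (1.004 for VPA 392, 1.001 for control 401, 0.993 for control 402) ACADVL and ETFDH would overlap. ACSL4 would then cease to overlap, with each VPA library below each control (factor 1.013 for VPA 393). The split by direction therefore depends on the scaling. The shares were not recomputed with these factors. Control 408 was the lowest library in 7 of the 8 higher genes, the exception being ACADL. It was the lowest in 16 of the 39 members, or 41.0%, where it was the lowest in 21.4% of all tested genes. VPA 393 was the highest library in 13 members, or 33.3%, against 20.2% of all tested genes. Without control 408 the log2 fold change of ETFDH was 0.057 in place of 0.12 and that of EHHADH 0.093 in place of 0.16. Those of ECHS1 and DECR1 were then 0.18 and 0.24, and the members' median was 0.03. In the plot of these 9 genes the separation is a small part of the level in each case.

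**Figure D4:**
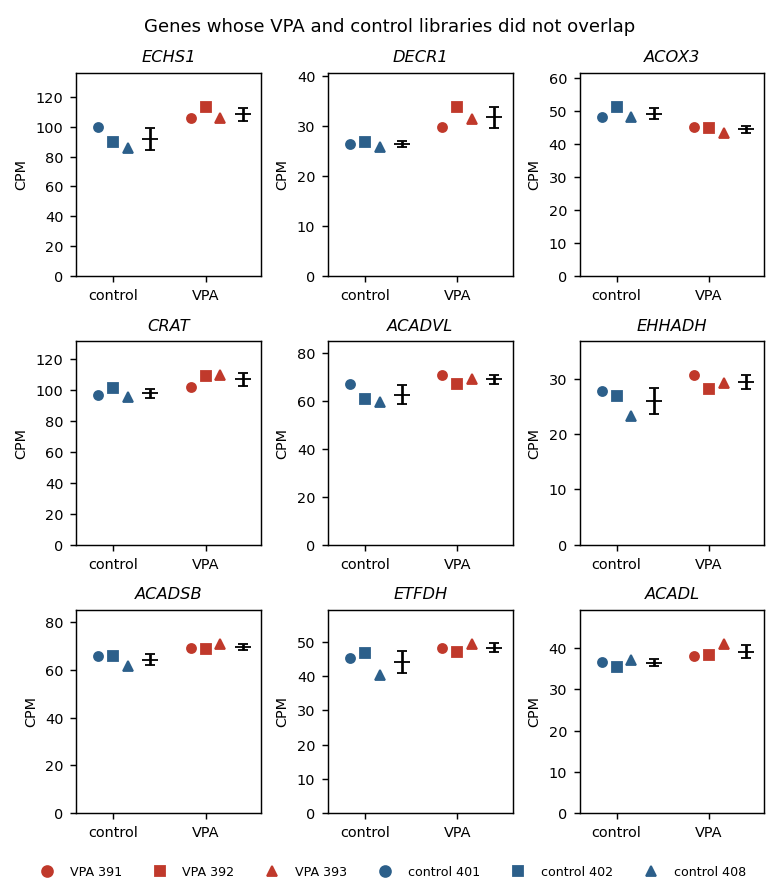
CPM in each library (vertical axes start at 0) of the 9 genes whose 3 VPA (red) and 3 control (blue) libraries did not overlap, ordered by p; bars are the mean and SD of 3 animals. ACOX3 is lower and the other 8 are higher in VPA, with ECHS1 (108 against 91.7 CPM) and DECR1 (31.7 against 26.4 CPM) the most separated.

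Genes next to these in the pathway were taken from 9 lists of 98 names, of which 82 could be tested. None was called in edgeR, while 17 (20.7%, against 16.1% of all tested genes) had an unadjusted p under 0.05, 15 of them higher in VPA. DESeq2 called 7 of the 76 genes it could adjust (ACAT2, ACOT11, ACSBG1, ACSF2, MCCC2, RXRG and SLC25A29), against 3.64% of all genes. With limma-voom and limma on FPKM 0 were called, with 17 and 16 genes at an unadjusted p under 0.05. Carnitine synthesis and other carnitine transporters had positive fold changes in 6 of 6 tested genes, with a median of 0.28 and 3 at an unadjusted p under 0.05. Of these, SLC22A16 (log2 fold change 0.29) went to -0.12 without VPA 392 and to -0.04 without control 408. TMLHE (0.04) went to -0.03 without VPA 391. Other acyl-CoA synthetases and thioesterases had a median of 0.18 (12 of 15 positive, 7 at an unadjusted p under 0.05). These medians lay above that of the 39 members (0.05), a difference that was not tested.

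SLC25A29, a mitochondrial carrier of basic amino acids first described as carnitine-acylcarnitine translocase-like, had 51.7, 55.4 and 63.9 CPM in VPA 391, VPA 392 and VPA 393 and 44.9, 40.8 and 38.8 CPM in controls 401, 402 and 408 (log2 fold change 0.44 ± 0.089, edgeR adjusted p = 0.063). ALDH9A1, an aldehyde dehydrogenase of carnitine synthesis, stood at 64.2 ± 2.91 CPM in VPA and at 52.9 ± 3.49 in controls (edgeR adjusted p = 0.12). The acyl-CoA thioesterase gene ACOT11 had 27.0, 24.3 and 23.9 CPM in VPA and 15.1, 19.5 and 15.5 CPM in controls, a log2 fold change of 0.58 ± 0.12 (SE, edgeR adjusted p = 0.063). ACSBG1, the bubblegum-type synthetase of very long chains, had 276, 248 and 253 CPM in VPA and 220, 210 and 186 CPM in controls (log2 fold change 0.32 ± 0.068, edgeR adjusted p = 0.067). In all 4 genes, which were picked for a low p, each VPA library lay above each control. Over the 82 tested pathway genes the groups did not overlap in 19, or 23.2%, close to the 21.2% of all tested genes.

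Among branched-chain and short acyl-CoA enzymes (16 tested, 9 positive, median 0.02), both subunits of methylcrotonyl-CoA carboxylase, an enzyme of leucine breakdown, had the lowest p. MCCC2 had 213, 210 and 210 CPM in VPA and 169, 185 and 154 CPM in controls (edgeR adjusted p = 0.067). MCCC1 had 28.5 ± 1.41 CPM in VPA and 22.0 ± 1.54 in controls (edgeR adjusted p = 0.086). The median of 5 ketone body genes was -0.05, with ACAT2, a cytosolic thiolase, at 114 ± 7.56 CPM in VPA and 87.1 ± 13.7 in controls, and OXCT1, which activates ketone bodies, at 18.5 ± 1.61 and 20.6 ± 0.631 CPM.

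The list of malonyl-CoA control, the brake on CPT1, had a median of -0.01 over 5 genes. MLYCD, which removes malonyl-CoA, had 7.65, 7.92 and 8.17 CPM in VPA and 9.95, 9.91 and 8.93 CPM in controls 401, 402 and 408, lower in each VPA library (edgeR adjusted p = 0.27). PRKAA1, a catalytic subunit of AMP-activated kinase, had 24.8 ± 0.405 CPM in VPA and 23.2 ± 1.16 in controls. Other peroxisomal genes (13 tested, 9 positive) had a median of 0.04, with ABCD4, a relative of the peroxisomal transporters that works in lysosomes, at 14.7 ± 1.45 CPM in VPA and 11.5 ± 1.94 in controls and the catalase gene CAT at 111 ± 5.28 and 104 ± 2.27 CPM.

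Other nuclear receptors and coactivators (11 tested, 7 positive) had a median of 0.03. RXRG, a retinoid X receptor and possible partner of PPARA, had 13.3, 14.3 and 24.4 CPM in VPA 391, VPA 392 and VPA 393 and 10.8, 8.13 and 9.56 CPM in controls (edgeR adjusted p = 0.097). VPA 393 was the highest, as it was in the summed striatal markers, and the log2 fold change of RXRG was 0.86 with and 0.53 without that animal. RXRA had 24.6 ± 1.46 CPM in VPA and 20.2 ± 1.54 in controls (edgeR adjusted p = 0.18). Genes known to respond to PPAR receptors elsewhere (10 tested, 8 positive) had a median of 0.10 with 0 at an unadjusted p under 0.05. Of these PLIN2, which encodes a lipid droplet coat protein, stood at 11.1 ± 0.203 CPM in VPA and at 9.30 ± 1.31 in controls, and PDK2, a pyruvate dehydrogenase kinase, at 159 ± 3.19 and 149 ± 5.59 CPM. Of the drug-metabolising enzymes only CYP2A19 could be tested, at 4.63 ± 0.589 CPM in VPA and 5.76 ± 2.06 in controls.

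**Figure D5:**
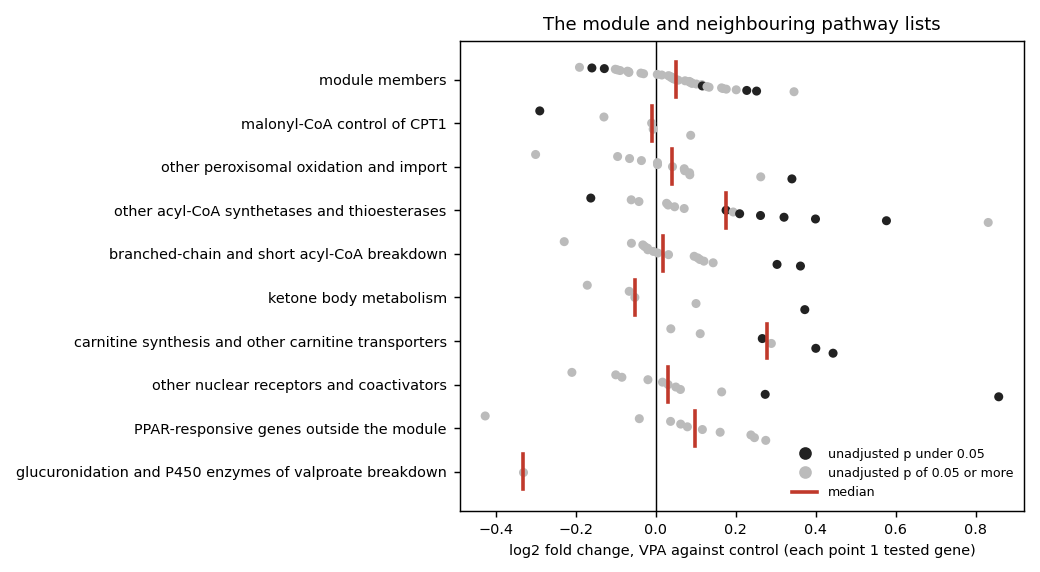
Log2 fold change (VPA against control, horizontal axis) of every tested gene in the 39-gene module and in 9 neighbouring lists (vertical axis); dark points have an unadjusted p under 0.05 and the red line is the median. The module spreads closely around its median of 0.05, while the carnitine synthesis list (median 0.28) and the other synthetases and thioesterases (0.18) lie further to the right.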

How the data were processed

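For each of 6 libraries the authors deposited 1 file of raw counts and 1 of FPKM, both by gene symbol, per the file headers. RNA was extracted with TRIzol and libraries made with a VAHTS Universal V6 kit, per the labels' protocols. The sources used here give no aligner, counting tool, strandedness, build or annotation. All 97071 nonzero FPKM values equalled count over file total and a fixed gene length within a relative tolerance of 0.001, so the FPKM add no measurement of their own. Names of all 39 members matched symbols of the RefSeq table of Sscrofa11.1. Reads shared by overlapping or near-identical genes cannot be separated here, and 24 names turned into dates (0.34% of counts) were kept in library sizes only.

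The count tables went through edgeR 4.0.16 in R 4.3.3, with filterByExpr (14373 of 17201 genes kept), TMM, glmQLFit and glmQLFTest without covariates, and Benjamini-Hochberg adjustment over all tested genes, with a threshold of 0.05. Standard errors and 95% intervals were derived from the F statistic, with intervals not adjusted for the number of genes. CPM used file totals. Labels name separate animals but not litters. Functions were tested on simulated data. Alternatives were other scalings, filters and thresholds, DESeq2 1.42.0, limma 3.58.1 (as voom, or with a trend on log2(FPKM + 1) or log2(FPKM + 0.1), mean FPKM of at least 0.5 or unfiltered), each library left out and, added after seeing the data, EIF1AY detection (above 0.5 CPM) as a covariate. The members and lists were chosen with earlier results of these data known. Values per library are given for members that passed, did not overlap or had an unadjusted p under 0.05, for the highest and lowest FPKM of each role, and for members singled out after their values were seen. From each pathway list the 2 genes with the lowest p are named.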

Additional observations from a re-analysis of the deposited data

How the results depend on the processing

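No paired analysis was possible because the animal numbers in the labels are not shared between groups. Of the 39 members 0 were called under any of 18 alternatives, and 28 kept the sign of their fold change in all 17 that give one. The other 11 changed sign, none of them called: over single libraries left out, log2 fold changes ran from -0.32 to 0.071 for ACSL5, -0.0018 to 0.086 for ACSL6, -0.011 to 0.026 for CPT1C, -0.040 to 0.11 for ACADS, -0.026 to 0.15 for ACAD8, -0.026 to 0.096 for ACAD9 and -0.18 to 0.31 for ACAD11. They ran from -0.039 to 0.12 for HADHA, -0.095 to 0.060 for ACAA1, -0.098 to 0.00064 for HSD17B4 and -0.068 to 0.074 for ETFB, which was also at -0.00090 with no filter. Over all genes 52 were called, against 141 with no filter, 444 with DESeq2, 30 with limma-voom, 2 with limma on log2(FPKM + 1) or log2(FPKM + 0.1), 1 with limma on unfiltered FPKM, 344 at an adjusted p of 0.1, and 0 to 66 with single libraries left out. The cause was not tested. Low counts limit CPT1B and PPARA most.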

Other observations

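ACAD11, low in VPA 393 and control 401, was set beside DNAJC13, a neighbour in the RefSeq order of genes. DNAJC13 lay between 41.0 and 45.3 CPM in the 6 libraries. The highest library was 2.10 times the lowest for ACAD11 and 1.10 times for DNAJC13.

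The FPKM of HADHA was 0.771, 0.772 and 0.649 times that of HADHB in VPA 391, VPA 392 and VPA 393, and 0.807, 0.722 and 0.662 times in controls 401, 402 and 408. The mean ratio was 0.730 in both groups (SD 0.0708 in VPA and 0.0729 in controls, n = 3 each). The subunit ratio therefore spread within each group while its group means coincided.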
